A study of Mus musculus with 4 samples.

Results

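Serpina1a, Serpina1b, Serpina1c, Serpina1d and Serpina1e are neighbouring mouse copies of the gene for α1-antitrypsin, a secreted inhibitor of neutrophil elastase and other serine proteases. These 5 genes, of 32285 in the matrices, were read by symbol in single cells of bone and marrow, and they were selected on a difference in their RNA between CD24-positive and CD24-negative cells of these same libraries. RNA and surface CD24 were measured together (CITE-seq) in 1 young (6 months) and 1 old (24 months) mouse. Both mice were INK-ATTAC animals, a strain in which a piece of the p16 promoter drives a caspase 8 that a drug can switch on, and neither had been treated. Marrow of femur and tibia (Liberase digest) and the bone itself (collagenase digest) were taken, red cells were lysed, lineage-positive blood cells were depleted, and live CD45- cells were sorted. The sort and the depletion set the shares of cell types given here, and with 1 animal an age no test of age was possible, so the intervals of single values cover counting error only.

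Antitrypsin is best known as one of the most abundant proteins that hepatocytes release into blood plasma, and its gene responds to inflammatory cytokines. In liver its transcription depends on factors such as those of the FOXA and C/EBP families. Mice carry several near-identical copies where humans carry a single gene. Cartilage, in which many of the cells below belong by their RNA, is built by chondrocytes that secrete type II and type IX collagen and aggrecan. In the growth plate they pass through an Ihh-positive and then a Col10a1-positive hypertrophic stage.

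The 5 genes lie on the minus strand of chromosome 12 (RefSeq, GRCm38.p6, the build mm10 named in the labels). Serpina1a spans chr12:103853295-103863619, Serpina1b chr12:103728156-103738189, Serpina1c chr12:103894926-103904950, Serpina1d chr12:103763587-103773633 and Serpina1e chr12:103946931-103956897. Because the copies are so alike, a stretch of each promoter is printed to show what they share. Each stretch of 102 bases reads 5′ to 3′ on the minus strand, and the capitals mark GTTAATATTCAC, 12 letters shared by all 5 copies. They cover chr12:103863629-103863730 for Serpina1a, chr12:103738204-103738305 for Serpina1b, chr12:103904966-103905067 for Serpina1c, chr12:103773638-103773739 for Serpina1d and chr12:103956964-103957065 for Serpina1e.
Serpina1a: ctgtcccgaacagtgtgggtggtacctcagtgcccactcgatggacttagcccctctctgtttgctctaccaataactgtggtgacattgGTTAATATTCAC
Serpina1b: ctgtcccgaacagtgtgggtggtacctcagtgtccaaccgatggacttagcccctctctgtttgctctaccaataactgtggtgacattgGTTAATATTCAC
Serpina1c: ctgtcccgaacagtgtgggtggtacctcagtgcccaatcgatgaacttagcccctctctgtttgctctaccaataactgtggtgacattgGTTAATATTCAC
Serpina1d: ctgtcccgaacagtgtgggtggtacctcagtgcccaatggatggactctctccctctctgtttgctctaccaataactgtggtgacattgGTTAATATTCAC
Serpina1e: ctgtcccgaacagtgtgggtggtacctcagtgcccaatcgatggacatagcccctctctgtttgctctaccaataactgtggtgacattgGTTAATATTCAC

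Any pair of these stretches was identical at 93.1% to 98.0% of positions. The 12 letters were picked as a stretch common to these 5 promoters, so finding them in the members was fixed in advance. Searched on both strands of the 250 bases before each annotated start, they occurred in 5 of 32851 promoters (0.0152%), all members. Their first 6 letters, GTTAAT, occurred in 2113 promoters (6.43%). The 12 letters begin 21, 26, 27 and 16 bases before the annotated start of Serpina1a, b, c and d, and 78 bases before that of Serpina1e. A match describes these letters and is not evidence of a bound factor.

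The filter (at least 200 genes and at most 20% mitochondrial UMIs, a UMI being 1 counted molecule) kept 10063 of 11371 young and 5607 of 6729 old barcodes. They held 81076421 and 66702846 RNA UMIs, with a median of 6385 and 9711 UMIs a cell. The old cells were thus read more deeply. A gene with no UMI in a whole library could still lie at up to 0.037 (young) or 0.045 (old) counts-per-million (CPM), the scale of RNA UMIs used from here on. Both libraries held 25 barcodes in common, of which 19 passed the filter in both and 0 carried a Serpina1 UMI.

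Antitrypsin RNA was abundant in a very small number of cells and far more frequent in the young library. The young cells held 7081 UMIs of the 5 genes together, or 87.3 CPM (exact Poisson 95% interval 85.3 to 89.4). The old cells held 350, or 5.25 CPM (4.71 to 5.83), so the young level was 16.6 times the old one (14.9 to 18.6). At least 1 such UMI was found in 184 young cells (1.83%, exact binomial 95% interval 1.58 to 2.11) and in 19 old cells (0.339%, 0.204 to 0.529). Thinned to 2000 RNA UMIs a cell, 80 of 9293 young cells (0.861%) and 10 of 5111 old cells (0.196%) kept a UMI.

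Counted over all UMIs, Serpina1a to d shared the direction of that difference and Serpina1e did not. Serpina1a, the most counted copy in the young library, stood at 43.0 CPM there (3490 UMIs in 106 cells) and at 1.35 in the old library (90 UMIs in 7 cells), a ratio of 31.9 (25.9 to 39.8). Serpina1d stood at 25.4 (2059 UMIs, 86 cells) against 1.05 (70 UMIs, 7 cells), a ratio of 24.2 (19.1 to 31.2). Serpina1b stood at 11.1 (901 UMIs, 66 cells) against 0.915 (61 UMIs, 5 cells), and Serpina1c at 6.77 (549 UMIs, 44 cells) against 0.375 (25 UMIs, 5 cells). Their ratios were 12.2 (9.37 to 16.0) and 18.1 (12.1 to 28.2). Serpina1e stood at 1.01 CPM in the young library (82 UMIs, 17 cells) and at 1.56 in the old one (104 UMIs, 10 cells), where it was 1.54 times higher (1.14 to 2.08). Reads of near-identical copies can be assigned to the wrong copy or dropped, so the level of each copy is less certain than that of the sum.

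A handful of cells decided these totals. The young cell with the most antitrypsin UMIs held 1079, which is 15.2% of the library's total, and the top 5, 10 and 20 cells held 46.1%, 64.0% and 84.4%. In contrast, 116 of the 184 young cells had a single UMI. The 46 young cells with 10 or more UMIs, called high carriers below, held 6878 UMIs (97.1%). Among the old cells 8 were high carriers, with 116, 42, 38, 37, 36, 21, 19 and 12 UMIs, together 321 (91.7%). The top old cell alone held 33.1% of its library's UMIs, and without it and its young counterpart the levels were 3.51 and 74.0 CPM.

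**Figure D1:**
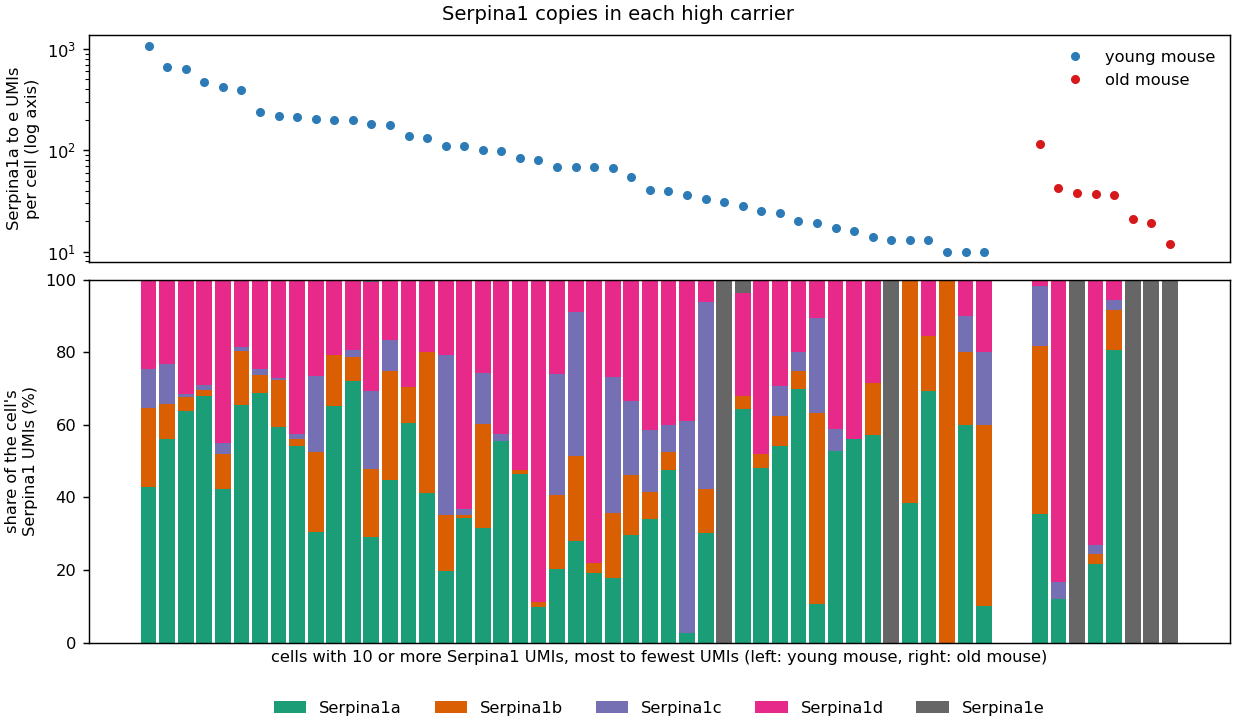
Antitrypsin UMIs of each high carrier (upper panel, log axis) and the share of each copy in the cell's antitrypsin UMIs (lower panel, %), for 46 young and 8 old cells ordered from most to fewest UMIs. Most young bars mix Serpina1a and Serpina1d with less Serpina1b and Serpina1c, whereas 4 of the 8 old bars are led by Serpina1e.

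The cells with many UMIs expressed several copies together. In the young cell with the most, antitrypsin made up 5.11% of 21099 RNA UMIs, with 462 of Serpina1a, 236 of Serpina1b, 115 of Serpina1c, 266 of Serpina1d and 0 of Serpina1e. Over the 27 young cells with at least 50 UMIs, the share of Serpina1a ran from 9.88% to 72.1% (median 42.8%) and that of Serpina1d from 8.82% to 88.9% (median 26.9%). Serpina1b ran from 0 to 38.9% (median 12.9%) and Serpina1c from 0 to 44.1% (median 2.02%), while Serpina1e never exceeded 0.549%. The mixture thus differed from cell to cell by far more than counting error. In Serpina1c, for example, the highest share had an exact interval of 34.7 to 53.9% and the lowest had an upper bound of 1.85%. The top old cell held 41 Serpina1a, 54 Serpina1b, 19 Serpina1c and 2 Serpina1d UMIs.

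Serpina1e was counted in other cells than its neighbours. Only 4 of 17 young and 1 of 10 old cells with a Serpina1e UMI also had a UMI of another copy. Conversely, of the cells with 3 or more UMIs of Serpina1a to d, 3 of 55 young and 1 of 6 old had any Serpina1e.

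Most antitrypsin RNA fell in 2 of 27 clusters, which had been built without the 5 genes. The cluster with the highest level, cluster 25, raised 18 of 20 chondrocyte markers, was led by Cnmd, Snorc, Mia, Col9a3 and Col9a2, and is called chondrocyte-like. It held 82 young cells (0.815% of kept cells) and 10 old cells (0.178%). An antitrypsin UMI was found in 49 of these young cells (59.8%, 48.3 to 70.4) and in 5 of the 10 old ones (exact interval 18.7 to 81.3%). The level there was 7310 CPM (7130 to 7500) in the young and 1950 (1710 to 2210) in the old mouse. The old value came from 5 cells, 1 of which held 116 of the 238 UMIs. Without the top cell of each mouse, an alternative added after the data had been seen, the levels were 6180 and 1120 CPM. The 10 old cells had a median of 8091.5 RNA UMIs, and each of the 5 with an antitrypsin UMI held 13883 or more. The 5 without one were thus shallower. They held 0 Mgp and 127 Prg4 UMIs, against 5721 and 2 in the 5 with one. The part of depth in the old share was not tested.

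Cluster 11 raised 11 of 20 chondrocyte markers and was led by Cytl1, Npy, Ecrg4, Meltf and Tnfrsf11b, with 2 genes each of the chondrocyte and the tendon list among its 10 leading genes. It held 380 young cells (3.78%) and 157 old cells (2.80%), and carriers made up 6.05% and 5.73% of them. Nearly all Serpina1e lay here, with 78 of 82 young and 102 of 104 old UMIs. The Serpina1e level in this cluster was 27.7 CPM (21.9 to 34.5) in the young and 49.5 (40.4 to 60.1) in the old mouse. The other copies together went the opposite way, from 110 (98.1 to 123) in the young to 2.43 (0.788 to 5.67) in the old mouse. Few cells made up this difference. Single young cells held 111, 101, 54 and 36 of the 310 UMIs of these copies, and a single old cell held 4 of the 5. Without the top cell of each mouse, the level of all copies in cluster 11 went from 138 to 98.6 CPM in the young and from 52.0 to 34.0 CPM in the old one. Both clusters together held 92.3% of the young and 98.6% of the old antitrypsin UMIs.

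Outside these clusters, 112 of 9601 young cells (1.17%, 0.961 to 1.40) had an antitrypsin UMI, and 102 of the 112 had a single one. Of the remaining 10, 3 cells had 2 UMIs, 2 B lineage-like cells had 5 and 3, and 5 were high carriers. In the old library it was 5 of 5440 cells (0.0919%), each with 1 UMI. Free RNA in the droplets can give such counts. Erythroid-like cells had a UMI in 10 of 359 young cells (2.79%, median depth 9986 UMIs) and in 0 of 550 old cells, which allows a share of up to 0.545%. Blood progenitor-like cells had one in 10 of 304 young cells (3.29%, median depth 25422.5), again with 1 UMI each. Whether single UMIs outside the chondrocyte-like clusters came from free RNA was not tested, and they are not interpreted further. Of those 5 high carriers, 2 lay in stromal-like clusters with 197 and 139 UMIs and 3 lay in fibroblast-like clusters with 67, 13 and 10. All 5 held Snorc UMIs (98, 76, 13, 17 and 6 in that order), and the cell with 67 was a predicted doublet.

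**Figure D2:**
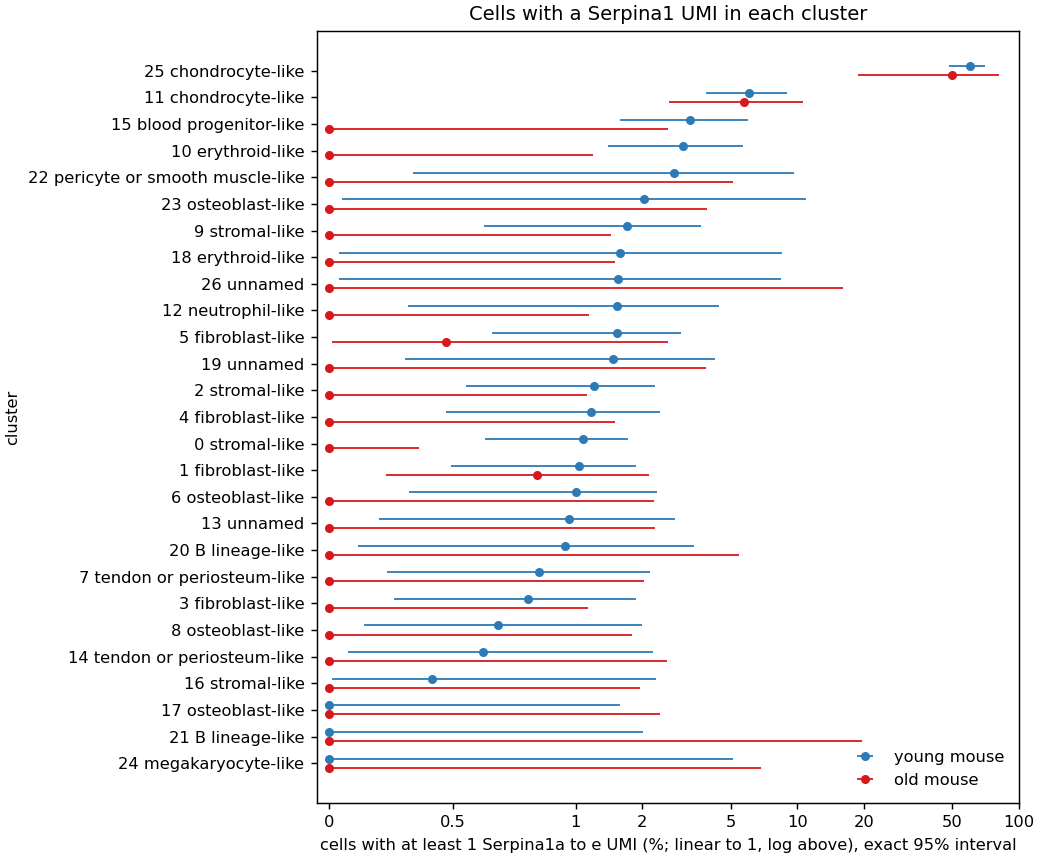
Share of cells with at least 1 UMI of Serpina1a to e in each of 27 clusters (x axis, %, linear to 1 and logarithmic above), for the young and the old mouse with exact 95% intervals. Cluster 25 reaches 59.8% in the young mouse and cluster 11 reaches 6.05%, and both lie above every other cluster of the same mouse.

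The genes that accompanied antitrypsin were those of cartilage. Cells were sorted into bins by their antitrypsin UMIs, and UMIs of each gene were summed per bin and given as CPM. Snorc, a transmembrane proteoglycan of cartilage, went from 53.1 CPM in young cells without antitrypsin to 8443.5 in the high carriers and was found in 44 of the 46. In the old library it went from 9.62 to 6907.4 CPM. Col2a1, which encodes type II collagen, stood at 71.4 against 5370.2 CPM in the young and at 132 against 6525.2 CPM in the old mouse. Fxyd2, a regulatory subunit of the sodium pump, stood at 2.29 against 1770.7 CPM (found in 41 of 46) and at 2.49 against 684 CPM. Sox9, the master regulator of chondrocytes, stood at 70.7 against 1062.1 CPM in the young mouse, and Mgp, an inhibitor of calcification made by cartilage, at 3109.7 against 69402.7 CPM. Cxcl12, the chemokine of marrow stroma, was lower in the high carriers, at 1874.0 against 6622.5 CPM in the young and 1962.1 against 6247.9 CPM in the old mouse. In the 14 young cells with 3 to 9 antitrypsin UMIs, Col2a1 (10015.6 CPM) and Snorc (5710.5 CPM) were high, whereas Fxyd2 was at 62.3 CPM. Of the 71 antitrypsin UMIs in this bin 24 were of Serpina1e, whose cells had other companion genes, as given below. The bin thus mixed different kinds of cell.

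**Figure D3:**
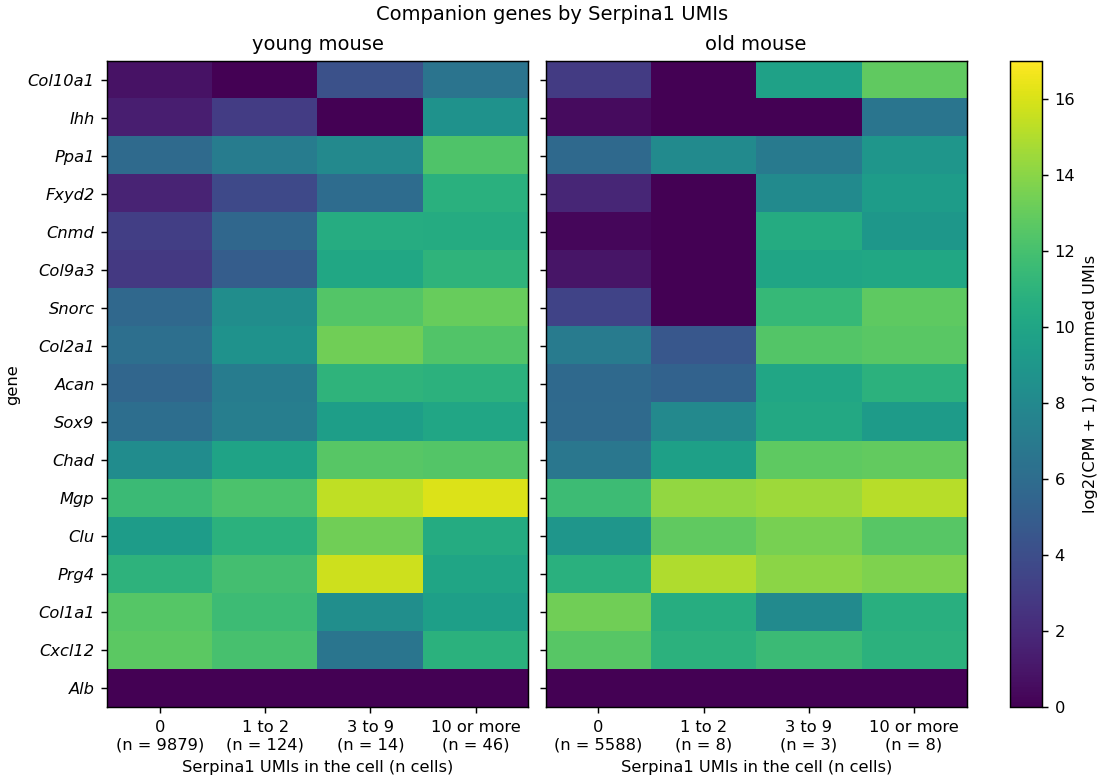
Level of companion genes, as log2(CPM + 1) of the summed UMIs (colour), in cells with 0, 1 to 2, 3 to 9, and 10 or more antitrypsin UMIs (x axis, with the number of cells), for the young and the old mouse. Snorc and Fxyd2 are highest in the bin of 10 or more UMIs in both mice, Col2a1 of the young mouse is highest at 3 to 9 UMIs, and the stromal gene Cxcl12 is lower at 10 or more than at 0 UMIs in both.

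High carriers were checked against marker lists of other cell types. Of 20 chondrocyte markers, a young high carrier had between 6 and 19 (median 15) and an old one between 3 and 20 (median 11.5). These markers made up 0.189% to 12.4% of the RNA of a young and 0.461% to 10.3% of that of an old high carrier. At least 3 of 14 osteoblast markers were found in 36 of the 46 young and in all 8 old high carriers, with up to 4.29% and 16.4% of a cell's RNA. At least 3 of 10 stromal and 3 of 12 fibroblast markers were each found in 20 of the 46 young and 5 of the 8 old ones. Of 16 hepatocyte markers, 13 had no UMI in any young high carrier and 16 had none in the old ones, and the remaining 3 (Fgg, Ahsg and Serpinc1) had 1 UMI each. Alb, Apoa1, Ttr and Fga, which define liver cells, were at 0. Hnf4a, a nuclear receptor of liver cells, also had 0 UMIs in the high carriers.

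Over single cells, the genes most like the antitrypsin sum were again of cartilage. The measure was Pearson's r of log(1 + UMIs per 10000), given as the lower of both mice, over 10063 young and 5607 old cells that share library and depth, among 15441 genes. Col9a3, a chain of type IX collagen, led with r of 0.56 over young and 0.459 over old cells. Snorc followed with 0.505 and 0.436 and Fxyd2 with 0.703 and 0.397. Prkg2, a cGMP-dependent kinase of growth plate chondrocytes, had 0.544 and 0.348. Col9a2, Mia, Scrg1, Col9a1, Matn3 and Eps8l2 completed the 10, with lower values between 0.243 and 0.322. These correlations describe sparse counts and carry no test.

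Whether these genes differed between carriers and other cells was tested on UMIs summed by mouse, with edgeR's quasi-likelihood test and a block for the mouse. The old library had too few high carriers for the intended minimum of 10 UMIs, so a carrier in the tests has 3 or more UMIs (60 young, 11 old). The carriers' sum of each mouse was compared with the sum of its cells without any antitrypsin UMI. The 4 sums leave 1 residual degree of freedom, so that the spread of each gene is mostly borrowed from other genes. The 5 members were left out. Over all kept cells 1936 of 15693 genes (12.3%) passed an adjusted p of 0.05, 797 higher (5.08%) and 1139 lower (7.26%) in carriers, and the median log2 difference over all genes was -0.21. DESeq2 called 786 genes, edgeR without the block for the mouse 974, and edgeR on cells thinned to 2000 UMIs 312.

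The genes with the largest rises, by the rule for named genes, were each found in at least 25% of the carriers of each mouse. Col9a3 was at 1970 CPM in young carriers against 6.1 in the other young cells, and at 1120 against 0.965 CPM in the old mouse. Its log2 difference was 9.34 (SE 0.415, adjusted p = 5.63e-107). Cnmd, chondromodulin, an inhibitor of vessel growth in cartilage, was at 1420 against 8.06 and 711 against 0.211 CPM (log2 9.29, adjusted p = 9.77e-113, and 8.17 with adjusted p = 0.0581 without the block). Fxyd2 was at 1520 against 2.29 and 596 against 2.49 CPM (log2 8.81, SE 0.386, adjusted p = 8.26e-110). Snorc was at 8100 against 53.1 and 5980 against 9.62 CPM (log2 8.41, SE 0.513, adjusted p = 2.96e-57).

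Mia (log2 8.84), Col9a2 (7.98), Matn3 (7.93), Extl1 (7.81), Ccn6 (7.53), Rspo4 (7.46) and Col9a1 (7.40) rose likewise. Mia encodes a small protein secreted by cartilage, Matn3 a cartilage matrix protein and Rspo4 an enhancer of WNT signalling. Among genes found in at least 25% of the cells without antitrypsin of each mouse, the largest falls were in Col1a1 and Col1a2, the chains of type I collagen of bone and tendon. Col1a1 was at 721 against 5860 CPM in the young and at 1380 against 10200 CPM in the old mouse (log2 -2.81, SE 0.407, adjusted p = 3.07e-10). Col1a2 (log2 -2.61), Plxna2 (-2.54), Map1b (-2.53), Slit3 (-2.46) and Aqp1 (-2.40) fell as well.

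Over all kept cells 5.08% of all genes tested rose and 7.26% fell, and the lists below are set beside these shares. Of 20 chondrocyte markers 19 were tested and all 19 rose (median log2 6.37). None of 10 stromal markers rose and 9 fell, and of 12 fibroblast markers 8 fell and 0 rose. All 10 erythroid markers fell. Of 14 osteoblast markers 4 rose and 6 fell. Only 2 of 16 hepatocyte markers had enough UMIs to be tested, and neither passed. Of 10 cell cycle genes 9 fell, among them Mki67 (log2 -3.56). Of 13 genes induced by tissue dissociation 7 rose, among them Ier2 (log2 1.81) and Fos (1.02), and their part in the other results was not tested. Within clusters 25 and 11, described next, 0 of these 13 and 0 of 2 tested cell cycle genes passed.

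That comparison sets chondrocyte-like cells against every other kind of cell, so it was repeated within clusters 25 and 11 alone. There were 53 young and 11 old carriers against 390 young and 153 old cells without antitrypsin UMIs. Of 9153 genes tested 364 passed (3.98%), 203 higher (2.22%) and 161 lower (1.76%), with a median of -0.04 over all genes. Carriers and other cells still differed in makeup. Cluster 25 held 44 of 53 young and 5 of 11 old carriers, but only 33 of 390 and 5 of 153 cells without. Through Serpina1e alone, 5 of the 53 young and 5 of the 11 old carriers met the minimum. These cells differed from the other carriers in their companion genes, as given below, and both tests pool the 2 kinds. Carriers were also deeper, with medians of 9324 against 6515 RNA UMIs in the young and 19302 against 10813 in the old mouse. Leaving out the deepest carrier of each library left 68 genes past the threshold. Of the genes named below Mia (log2 5.54), Cnmd (4.93), Slc13a5 (4.78), Nbl1 (-2.32) and Tcea3 (-2.31) were then no longer called. DESeq2 called 175 genes, edgeR without the block 149 and edgeR on thinned cells 168. Without the block the calls of Mia (adjusted p = 0.117), Col9a3 (0.0729), Cnmd (0.278), Aspn (0.105) and Nbl1 (0.0612) were lost.

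Within these clusters Fxyd2 was at 1710 against 14.8 CPM in the young and 596 against 17.5 CPM in the old mouse (log2 5.99, SE 0.48, adjusted p = 0.0017). Rspo4 had 71 UMIs in carriers and 0 in the other cells of both mice, at least 135-fold higher with a floor of 3 counts over the group (adjusted p = 0.00217). Col9a3 was at 2260 against 136 and 1120 against 21.2 CPM (log2 4.79, SE 0.439, adjusted p = 0.00244). Mia (log2 6.26, adjusted p = 0.0265) and Cnmd (4.75, adjusted p = 0.0432) passed less clearly.

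Several genes outside the cartilage matrix stood among the largest rises. Mgst2, a microsomal glutathione transferase, was at 128 against 4.14 and 66.7 against 2.12 CPM (log2 4.91, adjusted p = 0.00136). AW112010 was at 214 against 9.66 and 116 against 4.25 CPM (log2 4.53, adjusted p = 0.00136). Gpld1, a phospholipase that cleaves GPI anchors, was at 98.7 against 2.07 and 35.6 against 2.12 CPM (log2 5.01, adjusted p = 0.00256). Gal3st1 (5.57), Slc13a5, a citrate transporter (5.24), and Tnni2, a troponin subunit (4.67), rose too. The largest falls by the rule for named genes were Daam2 (-3.07), Aspn (-2.76), Tspan2 (-2.61), Nbl1 (-2.52), Tcea3 (-2.46) and Ntn1 (-2.40). Aspn encodes asporin, a small proteoglycan, and Ntn1 netrin-1.

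Because of the unequal makeup, the same genes were also counted within cluster 25 of the young mouse, with 44 carriers and 33 cells without antitrypsin, an alternative chosen after the data had been seen and without a test. Fxyd2 was found in 36 carriers and in 2 of the others (1930 against 14.2 CPM). Rspo4 was found in 16 against 0 cells, Gpld1 in 18 against 1, Tnni2 in 20 against 3 and AW112010 in 24 against 4. General cartilage genes were counted in both groups. Col2a1 was at 8200 against 7380 CPM, Mgp at 81900 against 73700 and Snorc, found in every one of the 77 cells, at 10600 against 6180. Among the rises named above Cnmd (1860 against 2000 CPM) and Col9a1 (692 against 708 CPM) did not keep their sign. Of the 6 falls 4 kept it, while Aspn, with 64 against 0 UMIs, and Ntn1 did not. Of the falls over all kept cells, Slit3 (3 against 0 UMIs) and Aqp1 (14 against 0 UMIs) did not keep theirs.

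The 20 chondrocyte markers were called within the same clusters too, where 15 of 19 tested rose and 0 fell (median log2 2.64). A list of growth plate genes, several of which are also chondrocyte markers, rose in part. Over all kept cells 14 of its 19 genes rose, where 5.08% of all genes did, and 1 fell (median log2 3.03). Within the same clusters 9 of 19 rose, where 2.22% of all genes did, and 1 fell (median 1.37). Ihh, the hedgehog ligand of prehypertrophic chondrocytes, was at 393 against 1.38 CPM in the young and 75.6 against 5.31 CPM in the old mouse within these clusters (log2 6.13, adjusted p = 0.0078). In cluster 25 of the young mouse it was found in 16 of 44 carriers and in 0 of 33 others. Ucma (2.64), Fgfr3 (2.91), Pth1r (2.00), Col2a1 (1.99), Acan (1.96), Mef2c (2.12) and Alpl (1.37) rose also. In cluster 25 of the young mouse, however, Pth1r was lower in carriers (1020 against 1620 CPM) and Col2a1 differed by 0.15 on the log2 scale. Col10a1, the collagen of hypertrophic cartilage, rose (3.64, adjusted p = 0.0228), but 1319 of its 1361 UMIs in old carriers came from 1 cell. Mmp13, a collagenase of late hypertrophic cells and osteoblasts, fell (log2 -4.21, adjusted p = 0.00465), and Sox9 did not pass (log2 0.62, adjusted p = 0.246).

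Of 29 other serpins in the matrices 16 could be tested over all kept cells, of which 1 rose, 4 fell and 11 did not pass. Of all genes tested 5.08% rose and 7.26% fell there, and 2.22% rose and 1.76% fell within the same clusters. Serping1 (-1.80), Serpinf1 (-1.30), Serpina3c (-2.73) and Serpina3g fell. Within the same clusters 1 of 11 rose, Serpina12 (log2 3.62, adjusted p = 0.0316, on 14 and 3 UMIs), and Serpinf1 fell (-1.54). Serpina1f, a further member of the clade, had 0 UMIs in the high carriers and in the cells without antitrypsin. Elane, neutrophil elastase, which antitrypsin holds in check, had 0 UMIs in the high carriers.

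Of 14 genes for the folding, export and uptake of antitrypsin 2 rose over all kept cells and 12 did not pass. Of all genes tested there 5.08% rose. Sort1, the sorting receptor sortilin, was at 52.4 against 8.19 CPM in the young and 48.9 against 11.7 CPM in the old mouse (log2 2.59, adjusted p = 8.24e-10), and it rose within the same clusters too (log2 3.52, adjusted p = 0.0188). Asgr1, a subunit of the asialoglycoprotein receptor, rested on 1 young and 9 old UMIs in carriers (log2 6.03). Lman1, the cargo receptor by which antitrypsin leaves the endoplasmic reticulum, was at 163 against 171 and 156 against 180 CPM (log2 0.02, adjusted p = 0.983).

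Of 13 tested regulators of the gene in liver and inflammation, 3 rose and 4 fell over all kept cells, where 5.08% of all genes rose and 7.26% fell. Foxa3, a forkhead factor of liver and of hypertrophic cartilage, was at 35.9 against 0.607 CPM (26 UMIs in young carriers) and 31.1 against 0.181 CPM (7 UMIs in old carriers), with a log2 difference of 6.58 (adjusted p = 1.11e-10). Foxa2 rose on 9 and 3 UMIs (log2 5.6, adjusted p = 0.000276) and Nfkbiz by 0.97, while Il1r1, Lcn2, Cebpa and Osmr fell. Within the same clusters none of the 13 passed, with Foxa3 at 1.93 (adjusted p = 0.0605) and Foxa2 at 3.00 (adjusted p = 0.0772). Stat3, which carries the signal of IL-6, was at 81.4 against 109 and 129 against 121 CPM over all kept cells (log2 -0.04, adjusted p = 0.953).

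Of 17 tested genes of acute-phase and plasma proteins, 2 rose, 8 fell and 7 did not pass over all kept cells (median log2 -1.30). Of all genes tested 5.08% rose and 7.26% fell there, and 2.22% rose and 1.76% fell within the same clusters. Rbp4, the retinol carrier (1.63), and Itih2, which binds hyaluronan (2.14), rose, and Hp, haptoglobin (-1.20), C3 (-1.60), Cfb (-1.69), Kng1 (-1.54), A2m, Apoe, Trf and Cp fell. Within the same clusters Hp (log2 3.29, adjusted p = 0.0169) and Kng1 (3.68, adjusted p = 0.0322) rose and 7 of 9 did not pass. Hp is also a marker of marrow stroma, and Cxcl12 (log2 2.59, adjusted p = 0.0436) and Esm1 (2.76, adjusted p = 0.0404) of the same stromal list rose there as well, 3 of 10 in all. The share of these stromal markers in the RNA of a high carrier ran from 0 to 2.74% in the young and from 0.0144% to 1.89% in the old mouse, and its part in the rise of Hp was not tested. Of 9 tendon or periosteum markers 2 fell within the same clusters, and of 9 fibroblast markers 0 passed. Of 11 osteoblast markers 5 rose there and 1 fell (median log2 1.14). Bglap, osteocalcin, was at 3090 against 350 CPM in the young and at 1480 against 44.1 CPM in the old mouse (log2 4.04, adjusted p = 0.00598). Bglap2, its near-identical copy (2.02), Smpd3 (3.87), Sp7 (2.03) and Alpl rose with it, Col1a1 fell (-2.18), and their part in the other results was not tested.

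High carriers differed by which copy led. Serpina1a or Serpina1d had the most UMIs in 34 young and 3 old high carriers, Serpina1b in 4 and 1, Serpina1c in 6 and 0, and Serpina1e in 2 and 4. The 34 young cells led by Serpina1a or d were at 83367.8 CPM of Mgp and 10420.5 CPM of Snorc, found in all 34, while Ihh was found in 15 (345 CPM) and Col10a1 in 4 (24.2 CPM). The 6 led by Serpina1c were at 1155.6 CPM of Snorc, and 5 of the 6 had Ihh (1491.1 CPM) and 5 had Col10a1 (857 CPM). Some of these 6 were much alike. Those with 69 and 67 antitrypsin UMIs each held 85 Mgp UMIs, with 11 and 12 of Ihh, and the latter was a predicted doublet. Those with 68 and 33 held 820 and 443 Mgp, 27 and 16 Ihh and 15 and 8 Col10a1 UMIs. Whether all 6 were separate cells was not tested. Cells and copies here were sorted by measured values, so these levels are a description without a test.

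The cells led by Serpina1e carried another set of genes than those led by the other copies. All 6, from both mice, had Prg4, the joint lubricant lubricin (30627.4 CPM), Clu, clusterin (18273.0 CPM), and Comp, a cartilage matrix protein (22606.7 CPM), and 5 had Cilp, of the intermediate layer of cartilage. Fxyd2 and Ihh were found in 0 of the 6, Col2a1 and Snorc in 1. With a lower minimum of 3 UMIs the contrast held in size. The 5 young and 5 old cells with Serpina1e and none of the other copies were at 96078.8 and 31022.7 CPM of Prg4, found in each of them. The 52 young and 5 old cells with the other copies and no Serpina1e were at 141 and 17.6 CPM of Prg4 and at 8610.7 and 11506.8 CPM of Snorc. In the Serpina1e cells Snorc stood at 506 and 127 CPM, Fxyd2 at 0 in both mice, and Sox9 was found in every cell. The high carriers led by Serpina1e all lay in cluster 11, whose leading genes include Clu and Cilp. They were not compared with the cells of that cluster without antitrypsin. Prg4 was also found in 39.3% of all young and 36.6% of all old cells without antitrypsin.

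**Figure D4:**
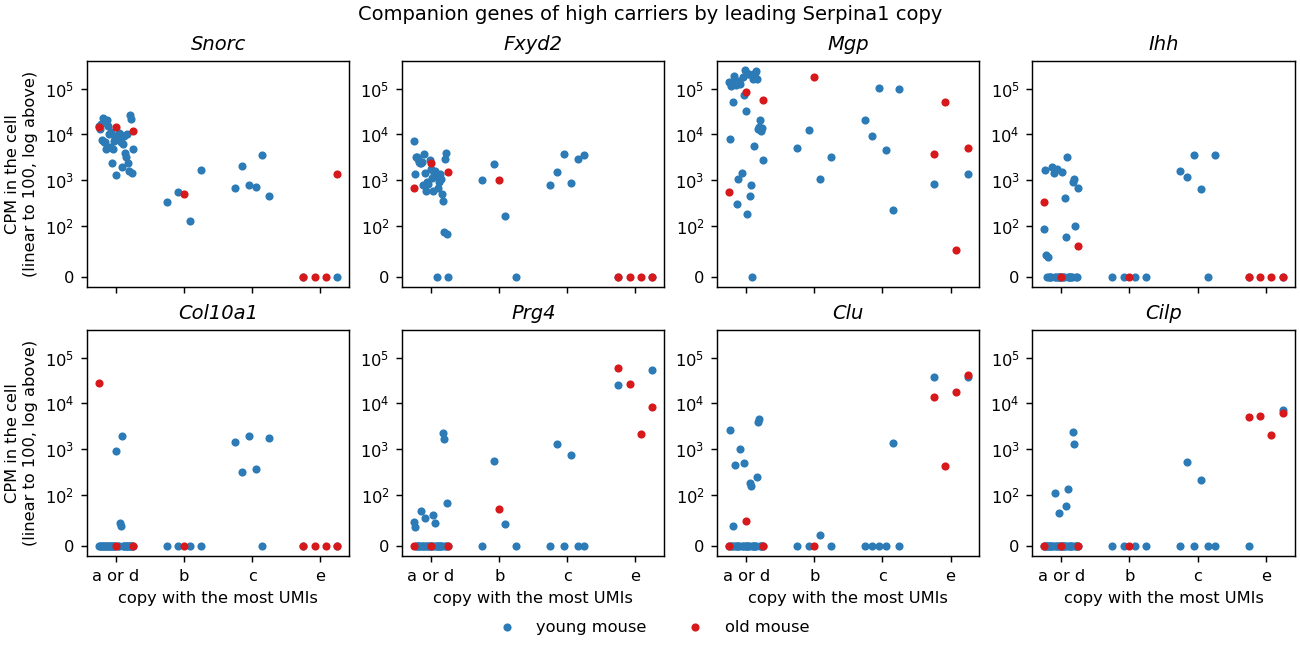
CPM of companion genes in each high carrier (y axis, linear to 100 and logarithmic above) by the antitrypsin copy with the most UMIs in the cell (x axis), with young and old cells marked apart. Cells led by Serpina1e have Prg4 and Clu and lack Fxyd2 and Ihh, while 5 of the 6 cells led by Serpina1c have Col10a1.

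Seen from the companion genes, antitrypsin marked most cells with Fxyd2 in the young mouse. Of 49 young cells with 3 or more Fxyd2 UMIs 41 had an antitrypsin UMI (83.7%, 70.3 to 92.7), against 5 of 15 old cells (33.3%, 11.8 to 61.6). For Ihh it was 16 of 27 young (59.3%) and 1 of 4 old cells, and for Cnmd 38 of 74 (51.4%) and 5 of 5. Wider cartilage genes included many cells without it. Snorc gave 59 of 183 young (32.2%, 25.5 to 39.5) and 7 of 26 old cells (26.9%, 11.6 to 47.8). Col2a1 gave 59 of 235 young (25.1%, 19.7 to 31.2) and 8 of 160 old cells (5.00%, 2.18 to 9.61). For Prg4 it was 1.89% of 2332 young and 1.02% of 1175 old cells.

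CD24, the glycoprotein that the antibody detects, was the measure on which the members had been picked, so its values describe them and are not tested. A cell was called CD24+ above 312 antibody UMIs (young) or 396 (old), which gave 15.6% and 13.6% of kept cells, with 24.1% and 21.4% of all RNA UMIs. Of the antitrypsin UMIs, 3969 of 7081 (56.1%, 54.9 to 57.2) lay in CD24+ cells in the young and 179 of 350 (51.1%, 45.8 to 56.5) in the old mouse. Without the top cell of each library the shares were 48.2% and 26.9%, so the old value rested on 1 cell. The shares also depended on the threshold, and with only the highest 10% of cells called CD24+ they were 16.6% and 18.0%. The RNA shares above belong to the thresholds of 312 and 396, so these values cannot be set against them. By copy the young shares were 60.4% for Serpina1a, 59.2% for Serpina1d, 47.4% for Serpina1b, 41.5% for Serpina1e and 33.0% for Serpina1c. In the old mouse they ran from 16.3% for Serpina1e to 88.5% for Serpina1b.

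By cell, 18 of 46 young (39.1%, 25.1 to 54.6) and 3 of 8 old high carriers (37.5%, 8.52 to 75.5) were CD24+. Their median antibody count was 228 and 362.5, against 92 and 95 in cells without antitrypsin. High carriers were also deeper, with medians of 11601.0 and 19832.5 RNA UMIs against 6359 and 9690. Within clusters 25 and 11, the median antibody count was 230 against 94.5 in the young and 362.5 against 94 in the old mouse. Per 1000 RNA UMIs the medians were 23.3 against 16.4 and 15.5 against 10.1, so the gap was smaller once depth was divided out. Makeup differed too. Of 41 young high carriers 35 lay in cluster 25, and of 390 young cells without antitrypsin 357 lay in cluster 11. In the old mouse it was 4 of 8 and 148 of 153. Over all its cells, cluster 25 had antibody medians of 203.5 (young) and 429.5 (old), cluster 11 of 91.5 and 89. The part of the cluster in the gap was not tested. The ranges overlapped widely, as high carriers ran from 24 to 3328 antibody UMIs in the young and from 17 to 1145 in the old mouse. Of the 46 and 8 high carriers 2 and 0 were predicted doublets.

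**Figure D5:**
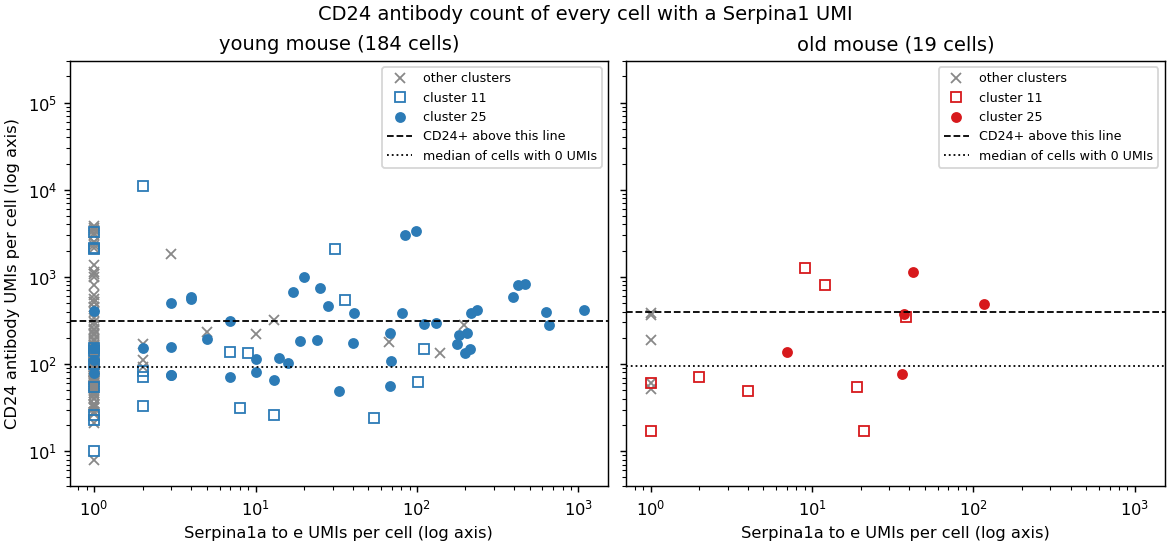
CD24 antibody UMIs per cell (y axis, log) against antitrypsin UMIs per cell (x axis, log) for all 184 young and 19 old cells with at least 1 such UMI, with cells of clusters 25 and 11 marked apart from the others. The dashed line is the CD24+ threshold (312 and 396) and the dotted line the median of cells without antitrypsin (92 and 95), and high carriers lie on both sides of the dashed line.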

How the data were processed

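Values were raw UMI counts per gene and cell deposited by the authors in 1 matrix per mouse, with no normalization. The matrix headers name Cell Ranger 6.1.1, the labels mm10, and the annotation release is not given in the sources used here. A 3′ library reads transcript ends, and reads shared by near-identical copies may be lost or misassigned. The 5 members and all lists were chosen with earlier results of these data known.

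Barcodes with at least 200 genes and at most 20% mitochondrial UMIs were kept. Predicted doublets (Scrublet in scanpy 1.11.5, 2.67% of young and 1.02% of old cells) were kept and left out as an alternative. Cells were clustered after the study's methods (Seurat 5.3.0, sctransform 0.4.2, R 4.3.3, 3000 features without the members, 30 components, resolution 0.8). Clusters were named "-like" from marker lists of 21 classes, with at least 3 raised markers, and 24 of 27 received a name. CD24+ meant an antibody count above Otsu's threshold on log(1 + count) per library.

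Shares have Clopper-Pearson and sums exact Poisson intervals at 95%. Carriers were tested on raw UMIs summed per mouse with edgeR 4.0.16 (quasi-likelihood test, TMM, filterByExpr, Benjamini-Hochberg adjustment, two-sided, mouse as a block), after a check on simulated data. The block joins both sums of a mouse, which come from 1 animal, so the pairing is by the design. The test was meant for cells with 10 or more UMIs if each library had at least 10 of them; the old library had 8, so the lower minimum of 3 UMIs is reported. Named genes were the members, the 10 most like their sum, the 12 largest rises and 6 largest falls of each test (same sign in both mice, and a UMI in 25% or more of the higher group's cells in each mouse), and members of 8 gene lists. Some genes that this rule names are not reported here. Promoter sequences are from RefSeq (GRCm38.p6), in which all 5 members matched by symbol.

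Alternatives were a limit of 10% mitochondrial UMIs, no filter on cells, doublets left out, the top or deepest cell left out, thinning to 2000 UMIs, other carrier minima and CD24 thresholds, DESeq2 1.42.0, RLE factors, no filter on genes, no block, each mouse alone and a resolution of 1.2.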

Additional observations from a re-analysis of the deposited data

Results flagged for a closer look

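Antitrypsin UMIs were also counted in young barcodes that the filter had removed and that enter no comparison. There were 34 such UMIs in 20 of 1308 removed barcodes, and 1 UMI in 1 of 1122 removed barcodes of the old library.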

How the results depend on the processing

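With a minimum of 2 antitrypsin UMIs the share of young carriers was 0.676%, and thinning gave 0.861% (young) and 0.196% (old). High carriers were 0.457% and 0.143% of cells and, thinned, 0.28% and 0.0196%. The young level was 90.2 CPM without doublets and 74.0 without the top cell, and the old level 3.51 without its top cell. The share of UMIs in CD24+ cells fell to 48.2% and 26.9% without the top cells, to 16.6% and 18.0% when the highest 10% of cells were called CD24+, and to 23.5% in the young mouse with a mixture threshold. Against 1936 genes called over all kept cells (797 up, 1139 down), DESeq2 called 786 (478 up, 308 down), the fit with no replicate block 974 (515 up, 459 down) and thinned cells 312 (134 up, 178 down). Against 364 genes called within the same clusters (203 up, 161 down), DESeq2 called 175 (126 up, 49 down), the fit with no replicate block 149 (95 up, 54 down), thinned cells 168 (102 up, 66 down), no filter on genes 917 (376 up, 541 down) and leaving out the deepest carriers 68 (53 up, 15 down). Causes of these changes were not tested. In the added count within cluster 25 of the young mouse, Cnmd (-0.11), Aspn (6.11), Ntn1 (1.42) and Pth1r (-0.67) had the opposite sign of the fit within the same clusters, and Col9a1 (-0.03), Slit3 (1.90) and Aqp1 (3.95) that of the fit over all kept cells. The other 58 values for whole comparisons kept their call or stayed within their spread or within 1.5 times the main count. Of the single-gene values 338 did, 27 moved and 19 no longer passed, with the direction kept. Carrier minima of 10 and 20 UMIs were not run, since the old library held 8 and 6 such cells. Values of 1 mouse an age, low counts in the old library, and single cells that hold much of a total limit every comparison above.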
